A study of Mus musculus with 12 samples.

Results

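The 10 genes described here encode receptors, junction proteins and regulators that are best known from the endothelium, the cell layer that lines blood vessels: Tek, Tie1, Emcn, Esam, Flt1, Kdr, Eng, Egfl7, Sox18 and Icam2. They were picked by name out of 27670 named genes on the array, with earlier results of these data known. Their counts beside those of all probes are therefore descriptions of a chosen set. Every gene probe whose deposited name, or whose current symbol by accession, was one of the 10 was taken. This gave 16 probes. Flt1 had 5, Tek and Kdr had 2 each, and the other 7 genes had 1 each.

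RNA from 12 mouse cell samples was hybridised to 12 one-colour (Cy3) arrays, once per sample, so each array is a separate sample. As references, ES cells (embryonic stem cells of 129/Ola origin) and MEF (embryonic fibroblasts) had 1 array each. The other samples came from fibroblasts. One array held neural stem cell-like (NSC-like) spheres from MEF transduced with Bmi1, a Polycomb protein; the sphere sample is called iPS in its description and NSC-like in its source, and the latter was used. The remaining 9 arrays held induced pluripotent stem (iPS) lines. Bmi1 together with Oct4 gave 2 lines. The hedgehog ligand Shh gave 1 line, and 2 lines each came from oxysterol and from purmorphamine, small molecules that activate hedgehog signalling; in these 5 lines the agonist was given to embryonic fibroblasts and Oct4 was then transduced. A further 2 lines came from adult tail-tip fibroblasts with oxysterol and Oct4. All 9 lines therefore carried introduced Oct4. None of the samples was labelled as endothelium, and the labels do not say whether lines of a group came from separate cultures, so the p-values below measure the spread between these samples only.

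The angiopoietin receptor Tek (also called Tie2) and its relative Tie1 are receptor tyrosine kinases that stabilise vessels. Flt1 and Kdr are the receptors for vascular endothelial growth factor (VEGF); Kdr carries most of the mitogenic signal, and Flt1, which also exists as a shorter soluble form, binds the ligand tightly. Eng is a co-receptor for ligands of the TGF-beta and BMP family, Esam and Icam2 are adhesion molecules of the immunoglobulin superfamily found at endothelial junctions, Emcn is a sialomucin of venous and capillary endothelium, Egfl7 is a secreted protein, and Sox18 is a transcription factor of early vessels. Several of these genes are also transcribed outside vessels, for example Egfl7 in embryonic stem cells.

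Each probe reads 60 bases of a transcript. The first 30 bases are shown for the 8 probes on which the results turn, 5′ to 3′ and in lower case throughout, because 2 probes of the same gene often gave different values and the sequence is what tells them apart. Positions are those of the array design, in the mm7 build, and each covers the whole probe.
Tek, AK053336 probe, chr4:94134402-94134461, plus strand: agttctcatagaacttagcagtgttacccc
Tek, NM_013690 probe, chr4:94266776-94266835, plus strand: ctctaatgtgactgtatatactgctcggag
Tie1, NM_011587 probe, chr4:117847966-117848025, minus strand: gtgaacatgtcgctgtttgagaacttcacc
Flt1, BC029674 probe, chr5:146532609-146532668, minus strand: caccaagctttgatggcattcaaagatgtc
Flt1, NM_010228 probe a, chr5:146456619-146456678, minus strand: aagtaaagaaaagctatcgggattctctgg
Esam, NM_027102 probe, chr9:37466577-37466636, plus strand: gacaaaaggaggaaatggacctgaggtagg
Icam2, NM_010494 probe, chr11:106486772-106486831, minus strand: ccctggtggttaccagaactcaacatggca
Egfl7, NM_178444 probe, chr2:26599768-26599827, plus strand: aggctggatagagcagtcatccctagatcc
The 2 Tek probes lie 132.4 kb apart, and the Tek gene spans 135.9 kb in the RefSeq annotation of GRCm38. The Flt1 BC029674 probe lies 76.0 kb from NM_010228 probe a, in a gene that spans 164.8 kb. A second NM_010228 probe, called b here, starts 73 bases from probe a. The exon that holds each probe was not determined, since no annotation of mm7 was used.

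Signals are given as log2 of the processed signal minus the array's 75th percentile over gene spots, so 0 is the 75th percentile of that array, a signal of 1340 to 2156 intensity units. Differences were taken within a probe, across arrays; the mean signals of a gene's probes were used only to choose its brightest probe. A signal was called well above background when the scanner software flagged it so, and the lowest such signal on an array, its floor, ran from -7.27 to -4.20. Between 58.4% and 80.0% of gene spots were well above background per array, lowest on the Shh-Oct4 array and highest on the sphere array. All 8 pluripotency markers checked were higher in the iPS lines than in MEF, Pou5f1 (Oct4) by 10.35 log2 units, and 2 of 8 fibroblast markers were lower. The mean level of the 8 fibroblast markers, with each signal below its array's floor raised to that floor, was 2.66 in MEF and 0.30 in the spheres. It was 0.40 in tail-tip line 2, 0.29 in purmorphamine line 2 and -0.76 in oxysterol line 1, and -1.28 or less in ES cells and the other 6 lines.

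Of the 16 probes, 14 reached the well above background flag somewhere in the series and were tested. The Sox18 probe and the Flt1 AK084177 probe were dim on all 12 arrays. Per array, 6 to 8 of the 10 genes had a probe well above background: 6 in ES cells, 7 in MEF, 7 in the spheres and 6 to 8 in the lines. Esam, Flt1, Eng, Egfl7 and Icam2 were detected on every array through their brightest probe.

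**Figure D1:**
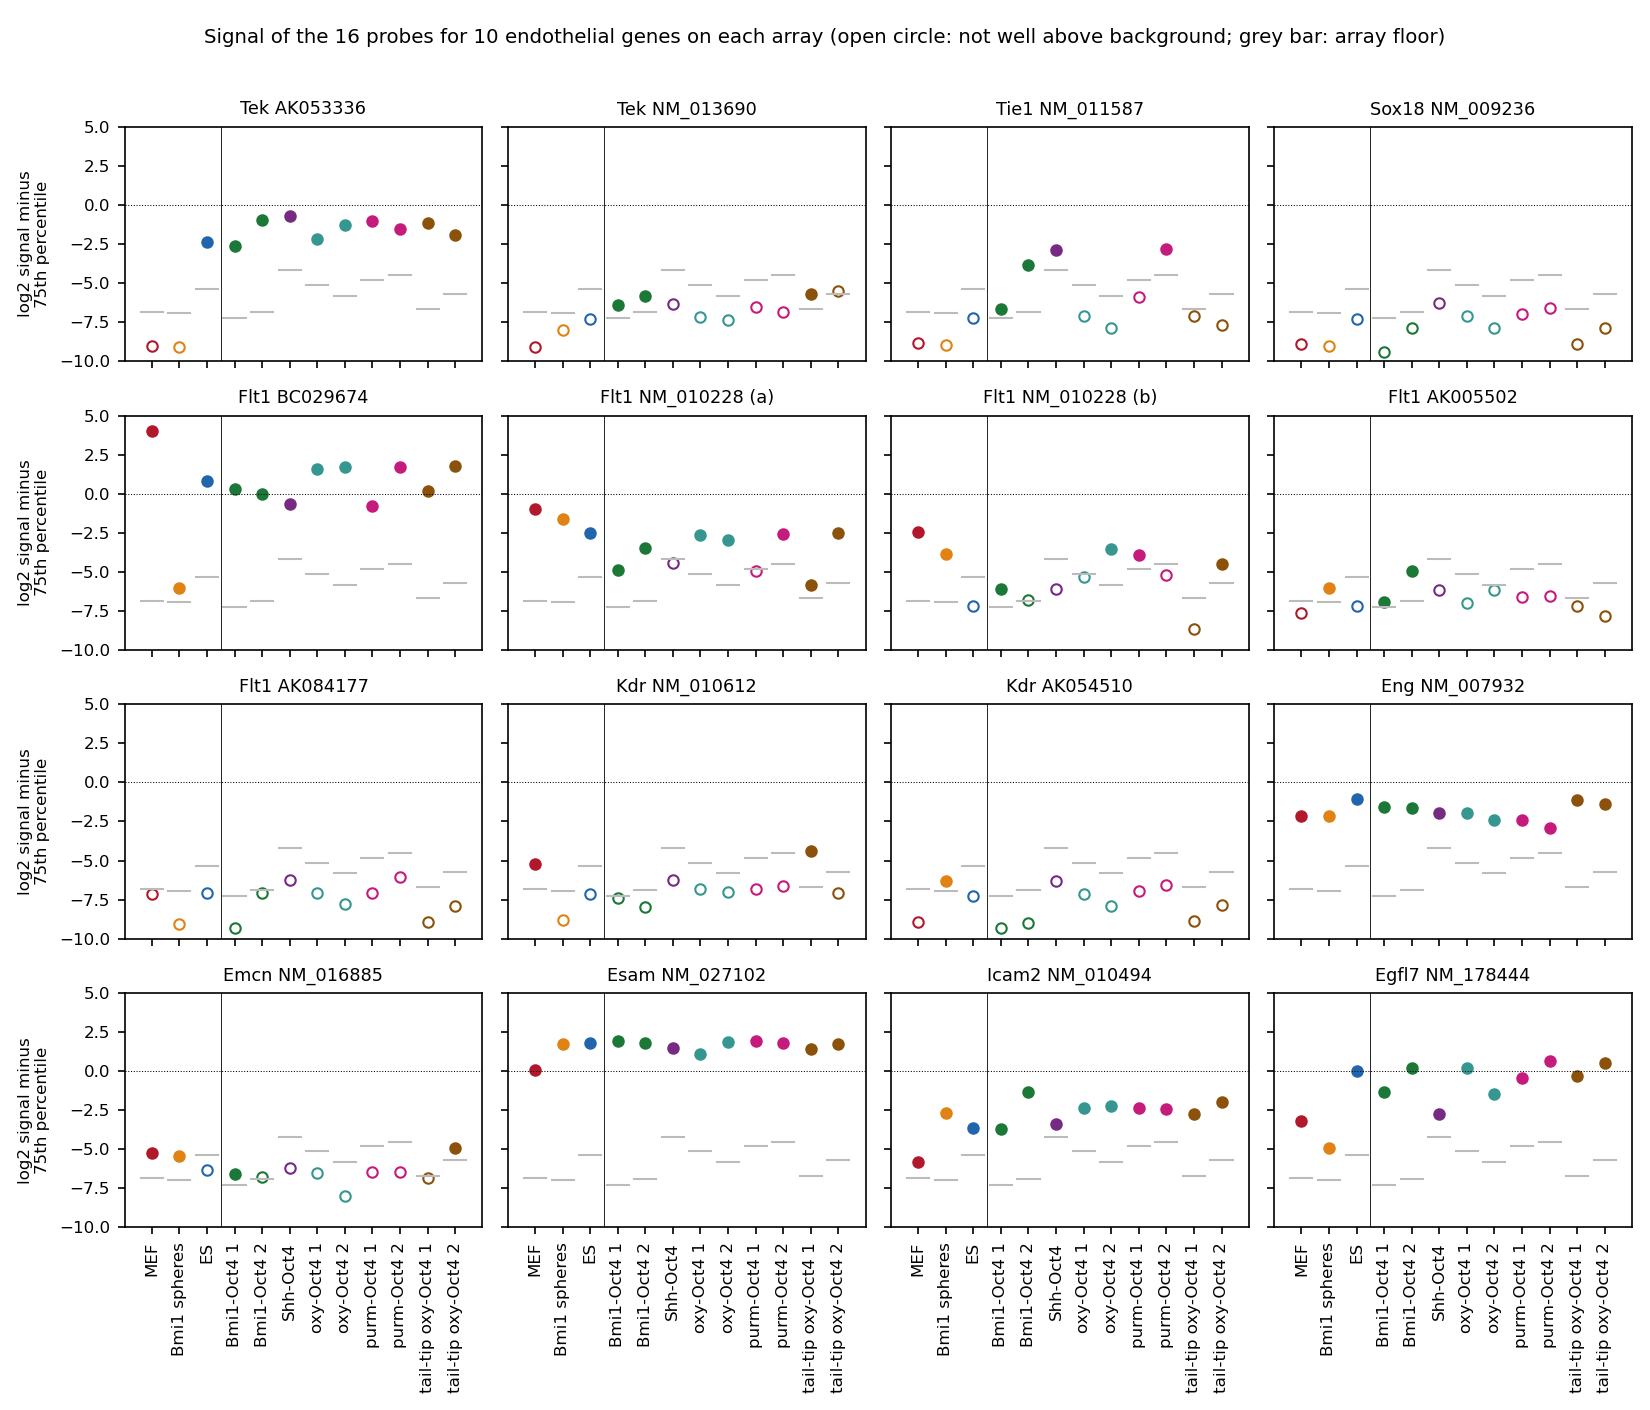
Log2 signal minus the array's 75th percentile (y axis) on each of the 12 arrays (x axis) for the 16 probes, 1 panel per probe; colours mark sample groups, filled circles are well above background, open circles are not, and grey bars are array floors. The Tek AK053336 probe is below the floor in MEF and in the spheres and lies between -2.60 and -0.68 in the 9 lines, while the Flt1 BC029674 probe is highest in MEF and lowest in the spheres.

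The first question was how the 9 iPS lines differed from the fibroblasts. In a limma model of 4 sample classes (ES, MEF, spheres, iPS lines), 4 of the 14 probes, for the 3 genes Tek, Icam2 and Esam, were higher in the lines at a Benjamini-Hochberg adjusted p below 0.05 over all probes. Over all 37777 tested probes, 6.86% were called higher. None of the 14 was called lower, against 2.38% of all probes. An unadjusted limma p below 0.05 was found for 7 of the 14 and for 9802 of all 37777 probes. The median difference of the 14 probes was 1.10 log2 units, beside 0.43 over all probes, a shift that came to 0.08 with quantile normalisation. Of all probes 2592 were called higher and 898 lower, a split of 2262 and 1622 with normexp background correction, 1990 and 1371 with quantile normalisation, and 1988 each with all signals raised to the highest array floor. MEF had 1 array, whose spread was taken to be that of the lines, and the median 95% interval of a probe reached 3.62-fold to either side. MEF and ES shared slide 1 with both Bmi1-Oct4 lines and no other line; within that slide the differences from MEF were 7.24 for Tek AK053336, 3.28 for Icam2 and 1.75 for Esam, and no probe of any gene was called.

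Tek, the angiopoietin receptor, showed the largest difference of the 14. With the AK053336 probe the signal was -9.02 in MEF and -9.11 in the spheres, both dim. It was -2.37 in ES cells. The Bmi1-Oct4 lines gave -2.60 and -0.95, the Shh-Oct4 line -0.68, the oxysterol lines -2.16 and -1.31, the purmorphamine lines -1.04 and -1.58, and the tail-tip lines -1.19 and -1.90. All 9 lines and ES cells were therefore well above background and apart from MEF and the spheres, with no overlap. In intensity units the probe read 3.63 in MEF, 3.41 in the spheres and 309 in ES cells. The lines, at -1.49 ± 0.63 (SD, n = 9), exceeded MEF by 7.52 log2 units (SE 0.67; limma adjusted p = 9.54e-05). Since the MEF signal was dim, the change is given with MEF raised to its floor, as at least 41.0-fold. This bound and the later ones take no account of the interval around a difference. ES cells exceeded MEF at least 22.3-fold on their single arrays.

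The NM_013690 probe of Tek, at the other end of the gene, gave far less signal change. It was dim in MEF (-9.12), the spheres (-8.03) and ES cells (-7.31), and well above background in only 3 lines: Bmi1-Oct4 line 1 at -6.40, Bmi1-Oct4 line 2 at -5.80 and tail-tip line 1 at -5.69. The highest signal of the probe, -5.54 in tail-tip line 2, was not flagged, though it lay above that array's floor of -5.71. The limma difference from MEF was 2.71 (SE 0.69; adjusted p = 0.0361), but with the MEF signal raised to its floor it is at least 1.35-fold. With all signals raised to the highest array floor the difference was 0, and with normexp background correction it was 0.77 (adjusted p = 0.172). The call for the AK053336 probe held in both settings, at 2.70 and 3.46 log2 units. Which transcript each Tek probe reads was not tested.

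Tie1, which pairs with Tek on endothelial cells, was dim in MEF (-8.85), the spheres (-8.95) and ES cells (-7.25). It was well above background in 4 lines, at -2.81 in purmorphamine line 2, -2.89 in the Shh-Oct4 line, -3.85 in Bmi1-Oct4 line 2 and -6.67 in Bmi1-Oct4 line 1. The other 5 lines were dim, from -7.86 to -5.91, among them purmorphamine line 1. By this flag the purmorphamine pair was split, both Bmi1-Oct4 lines and the Shh-Oct4 line were detected, and both oxysterol and both tail-tip lines were dim. The floors differed between arrays, however. Purmorphamine line 1, dim at -5.91 (floor -4.82), read higher than Bmi1-Oct4 line 1, detected at -6.67 (floor -7.27). The SD of 2.04 over the 9 lines was the highest of the 14 tested probes. The difference from MEF, 3.08 (SE 1.92), did not pass (limma adjusted p = 0.333).

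The brightest probe of the VEGF receptor Flt1 was BC029674, on which MEF had the highest signal of all arrays, 4.04. ES cells gave 0.80. The oxysterol lines gave 1.59 and 1.68, purmorphamine line 2 1.72 and tail-tip line 2 1.77, while the Bmi1-Oct4 lines gave 0.33 and -0.02, tail-tip line 1 0.15, the Shh-Oct4 line -0.64 and purmorphamine line 1 -0.76. Every line was below MEF, by 3.40 log2 units on average, or 10.5-fold, yet the difference did not pass (SE 1.03; limma adjusted p = 0.0661; adjusted p = 0.0392 with normexp background correction). The 3 lines with the highest fibroblast marker levels were all among the 4 lines above 1.5 on this probe, tail-tip line 2 and purmorphamine line 2 at its top. The other of the 4, oxysterol line 2, had a fibroblast marker level of -1.94. The spheres, with a level of 0.30, read -6.04 on this probe. The part of fibroblast RNA in these values was not tested.

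Probe a of NM_010228, nearer the far end of Flt1, was also highest in MEF, at -0.98, but its next highest array was the spheres, at -1.62. It gave -2.54 in ES cells and -5.84 to -2.53 in the lines, with 7 of 9 lines well above background and all 9 below MEF. Its difference between lines and MEF was -2.83 (SE 1.19; limma adjusted p = 0.164). Probe b gave -2.44 in MEF, was detected in 4 lines, and differed by -3.14 (SE 1.49; adjusted p = 0.213). That difference was -1.66 and passed (adjusted p = 0.00213) with all signals raised to the highest array floor. Flt1 AK005502 was detected only in both Bmi1-Oct4 lines and the spheres, and its difference of 1.03 did not pass (adjusted p = 0.445).

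Kdr, the main signalling receptor for VEGF, was at or near background. The NM_010612 probe, averaged over 10 spots per array, was well above background in MEF (-5.21) and in tail-tip line 1 (-4.41), and dim on the other 10 arrays. The AK054510 probe, also on 10 spots, was detected in the spheres alone, at -6.28. Neither probe differed detectably between lines and MEF, at -1.50 (SE 0.98; limma adjusted p = 0.357) and 1.18 (SE 1.08; adjusted p = 0.503), and the sign of the latter turned with quantile normalisation.

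Among the adhesion genes, Icam2, which binds leukocyte integrins, was -5.80 in MEF, -3.64 in ES cells and -2.69 in the spheres. The lines ran from -3.72 in Bmi1-Oct4 line 1 through a median of -2.37 to -1.32 in Bmi1-Oct4 line 2. All arrays were well above background, and MEF was the lowest of the 12. Icam2 rose by 3.31 log2 units, or 9.92-fold, in the lines (SE 0.74; limma adjusted p = 0.021). The call was lost with slide as a fixed block (adjusted p = 0.0865), where the difference was 3.28.

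Esam, a homophilic adhesion molecule of tight junctions, was the least variable of the 14 probes over the lines. It was 0.10 in MEF and 1.74, 1.78 and 1.68 ± 0.28 (SD, n = 9) in the spheres, ES cells and the lines, whose lowest was 1.12 in oxysterol line 1 and highest 1.95 in purmorphamine line 1. MEF was again the lowest array, and the other 11 lay within 1.12 to 1.95. The rise in the lines was 1.57 log2 units, or 2.98-fold (SE 0.43; limma adjusted p = 0.0448). Leaving out any line except oxysterol line 1 moved the adjusted p above the threshold, to 0.0699 at most, while the difference stayed between 1.54 and 1.64; the 8-group model gave an adjusted p of 0.11 at the same difference.

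Emcn was weak. It was well above background in MEF (-5.27), the spheres (-5.40), tail-tip line 2 (-4.93) and Bmi1-Oct4 line 1 (-6.55), and dim elsewhere, and its difference of -1.26 did not pass (limma adjusted p = 0.345).

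Eng, the co-receptor, was detected on all 12 arrays and varied little: -2.14 in MEF, -2.16 in the spheres, -1.04 in ES cells and -2.93 to -1.15 in the lines. The lines overlapped MEF, and their difference from it was 0.21, with a 95% interval from -1.19 to 1.61 (limma adjusted p = 0.852); its sign turned with quantile normalisation. Egfl7 was -3.19 in MEF, -4.92 in the spheres, 0.03 in ES cells and -2.75 to 0.65 in the lines. Its lowest line was Shh-Oct4 and its highest purmorphamine line 2. All 9 lines were above MEF and well above background, and the difference of 2.67 (SE 1.09) did not pass (limma adjusted p = 0.156).

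**Figure D2:**
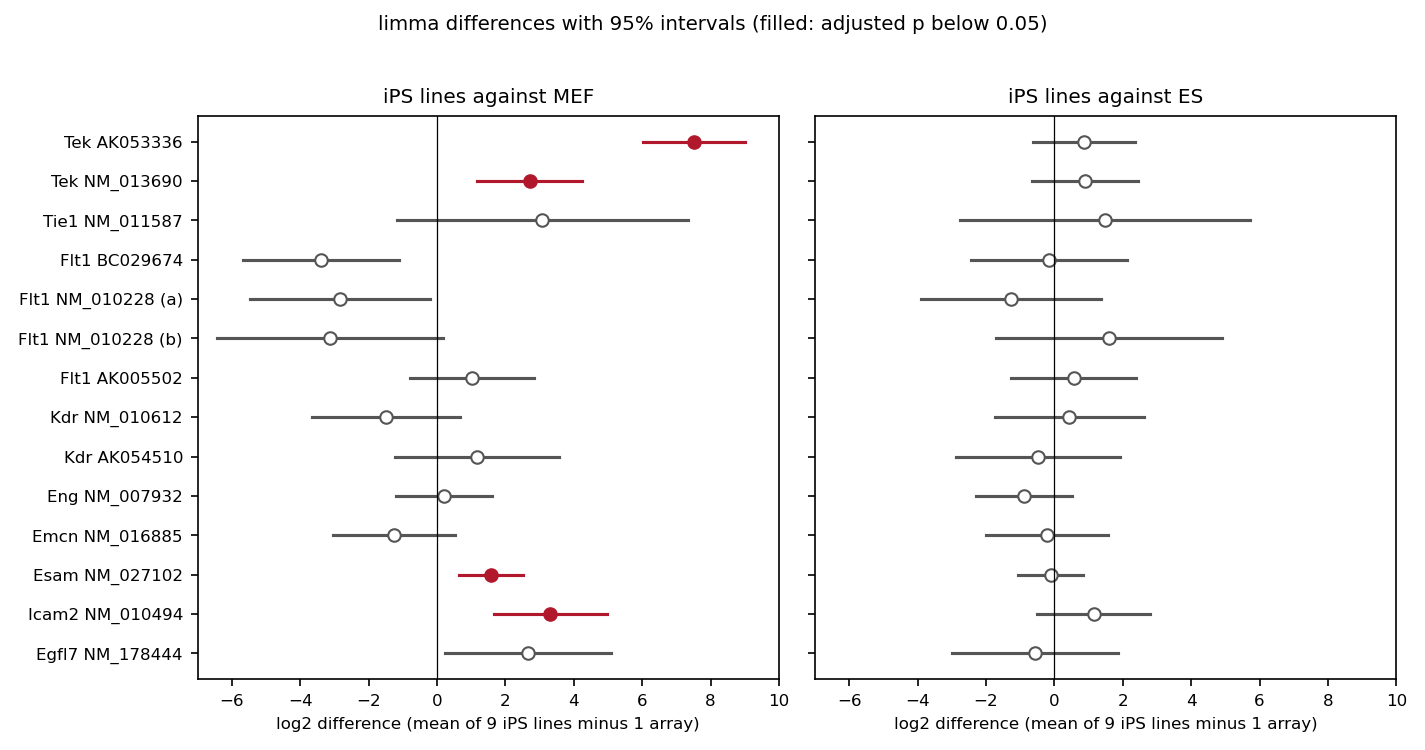
Log2 differences (x axis) of the mean of 9 iPS lines from MEF (left) and from ES cells (right) for the 14 tested probes, as points with 95% limma intervals; filled points passed an adjusted p of 0.05. Tek AK053336 stands at 7.52 from MEF and 0.88 from ES cells, and no interval on the right is for a called probe.

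Against ES cells the same model called none of the 14 probes; 0.0291% of all 37742 probes, 11 in number, were called in either direction, while 1695 had an unadjusted p below 0.05, none of them among the 14. All 14 adjusted p-values from limma were 1. Tek AK053336 differed by 0.88 (95% interval -0.61 to 2.37), Icam2 by 1.15 (-0.50 to 2.80), Esam by -0.11 (-1.05 to 0.84), Flt1 BC029674 by -0.16 (-2.43 to 2.12) and Egfl7 by -0.56 (-2.98 to 1.86). The intervals allow differences of several fold except for Esam. Eng lay below ES cells by 0.89 on average (-2.29 to 0.51).

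The spheres and ES cells could be set against MEF only as 1 array against 1, with no test, and both comparisons share the MEF array. The spheres were on slide 3 and MEF and ES on slide 1, so only the sphere comparisons also cross slides. A probe was counted when it differed 2-fold or more and its brighter signal was well above background. Between spheres and MEF, 4 of 14 probes were higher, beside 33.1% of all probes, and 4 were lower, beside 18.4%. Icam2 was 8.64-fold and Esam 3.1-fold higher in the spheres. Kdr AK054510 was higher by at least 1.49-fold and Flt1 AK005502 by at least 1.75-fold, both dim in MEF. Egfl7 was 3.31-fold lower in the spheres, Flt1 probe b 2.67-fold lower and Kdr NM_010612 at least 3.31-fold lower.

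The fourth lower probe was Flt1 BC029674, at -6.04 in the spheres against 4.04 in MEF, a 1083-fold difference with both signals well above background (28.6 and 30949 intensity units). Probe a of the same gene read -1.62 in the spheres and -0.98 in MEF, only 1.56-fold apart, and AK005502 ran the opposite way. The 5 Flt1 probes therefore gave no single account of the gene in the spheres, and which transcript each of them reads was not tested.

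Between ES cells and MEF, 5 of 14 probes were higher, beside 26.3% of all probes: Tek AK053336, Egfl7 (9.36-fold), Icam2 (4.47-fold), Esam (3.20-fold) and Eng (2.14-fold). A further 5 were lower, beside 22.1%: Flt1 BC029674 (9.45-fold), Flt1 probe a (2.94-fold), Flt1 probe b (at least 7.61-fold), Kdr NM_010612 (at least 1.11-fold) and Emcn (at least 1.07-fold). Between spheres and ES cells, 3 of 14 were higher in the spheres, beside 28.3% of all probes, and 4 were lower, beside 21.6%. The lower ones were Tek AK053336 (at least 23.7-fold), Flt1 BC029674 (115-fold), Egfl7 (31.0-fold) and Eng (2.18-fold). The higher ones were Flt1 probe b, by at least 2.85-fold, and Flt1 AK005502 and Kdr AK054510, which were dim in ES cells and within the floor. Esam and Icam2 were thus at the ES level or above in the spheres, with 1.03-fold and 1.93-fold between them. Egfl7 and the AK053336 probe of Tek were at or below the MEF level there.

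**Figure D3:**
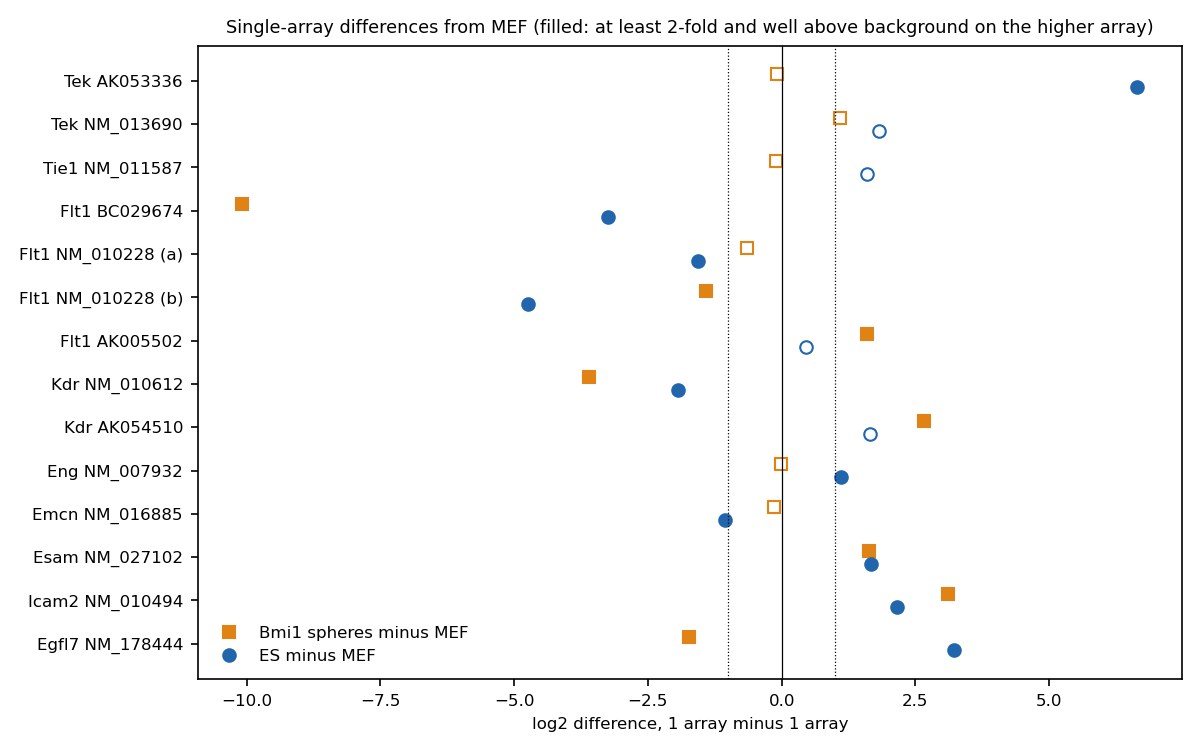
Log2 differences from MEF (x axis) of the Bmi1 sphere array (squares) and the ES array (circles) for the 14 tested probes, 1 array against 1; filled symbols differ 2-fold or more with the brighter signal well above background, and dotted lines mark 2-fold. Tek AK053336 is at 6.65 in ES cells and -0.09 in the spheres, and Flt1 BC029674 is at -10.08 in the spheres.

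The groups of lines were then compared in a limma model of 8 groups, whose spread came from the groups with 2 lines. Both Bmi1-Oct4 lines were on slide 1 and the hedgehog-agonist lines on slides 2 and 3, so method and slide cannot be told apart. Bmi1-Oct4 lines against the mean of the Shh, oxysterol and purmorphamine groups gave no called probe among the 14 or among all 37713 (0%), with 3908 of all and 1 of the 14 at an unadjusted p below 0.05. That probe was Kdr AK054510, lower by 2.32 in the Bmi1-Oct4 lines (limma adjusted p = 0.119), and it was dim in all 7 lines compared. Of the probes detected in all lines, Eng was 0.67 higher in the Bmi1-Oct4 lines (95% interval -0.23 to 1.58), and Tek AK053336 was 0.54 lower (-1.97 to 0.89).

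Oxysterol against purmorphamine lines likewise gave no call (0% of all probes, with 1902 of all and 1 of the 14, Tie1, at an unadjusted p below 0.05). These 2 agonists of different structure, a sterol and a purine derivative, were compared as 1 pair over 14 probes. Tie1 was 3.11 lower in the oxysterol lines (limma adjusted p = 0.873); both oxysterol lines and 1 of 2 purmorphamine lines were dim. Esam differed by -0.37 (95% interval -1.47 to 0.73), Icam2 by 0.11 (-1.85 to 2.06) and Tek AK053336 by -0.43 (-2.11 to 1.25). Doses were not given in the sources used here.

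Tail-tip against embryonic oxysterol lines gave no call either (0% of all probes, with 2476 of all and 1 of the 14, Tek NM_013690, at an unadjusted p below 0.05). Tek NM_013690 was 1.67 higher in the tail-tip lines (limma adjusted p = 0.657), where 1 of 2 lines was well above background and neither embryonic line was. Eng was 0.92 higher (95% interval -0.14 to 1.98), and Tek AK053336 differed by 0.19 (-1.49 to 1.88). Both tail-tip lines were on slide 3 and both embryonic oxysterol lines on slide 2, so origin and slide cannot be told apart between them.

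The ligands, partners and other endothelial genes around the 10 were taken from 5 lists, with each gene read by its brightest probe. Over all 25403 genes so read, 7.53% were higher and 2.26% lower in the lines than in MEF, and the median difference was 0.44. Of 15 VEGF and angiopoietin ligands and co-receptors none passed, and their median difference was -1.70. The Tek ligands Angpt1 and Angpt2 differed by -4.22 (limma adjusted p = 0.113) and -1.46 (adjusted p = 0.227). Vegfa, the main ligand of Flt1 and Kdr, differed by -0.42 (adjusted p = 0.813), and the VEGF co-receptor Nrp1 by -4.87 (adjusted p = 0.083). Angpt1 was detected in 3 and Nrp1 in 4 of the 9 lines.

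Of 15 genes of endoglin and BMP signalling 2 were lower and none higher, with a median of -1.01. Acvrl1, the type I receptor that works with Eng, fell by 6.12 log2 units (SE 1.46; limma adjusted p = 0.0266), from 2.10 in MEF to between -6.05 and -1.69 in the lines, of which 6 of 9 were well above background, so the mean of the lines includes dim signals. Bmpr2, the type II receptor, fell by 2.12 (SE 0.44; adjusted p = 0.0146). The co-receptor Eng itself differed by 0.21, as given above.

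Of 16 other junction and adhesion genes 3 were higher and none lower, with a median of 0.44. The tight junction genes were Ocln, up at least 2.78-fold and detected in 6 of 9 lines (limma adjusted p = 0.0266), Jam2, up 3.61 log2 units (SE 0.59; adjusted p = 0.00415), and Jam3, up 2.29 (SE 0.61; adjusted p = 0.0424), for which another probe gave -1.86. The adherens junction cadherin Cdh5 differed by -0.30 (adjusted p = 0.851) and Pecam1 by 2.73 (adjusted p = 0.118), with 4.71 from another Pecam1 probe. Both genes were taken as endothelial markers, and both were well above background on all 12 arrays. Pecam1 was between -3.30 and -0.42 in the lines, -2.51 in ES cells and -4.48 in MEF.

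Of 23 endothelial transcription factors 3 were higher and 1 lower, with a median of -0.08. Etv2, an ETS factor that starts the endothelial program, was dim in MEF and up at least 69.9-fold (limma adjusted p = 0.00112), at -1.35 in ES cells and -1.96 to 0.59 in the lines. Prox1, the lymphatic regulator, was up at least 8.10-fold (adjusted p = 0.0202), though both its other probes ran the opposite way, and Sox17, a relative of Sox18, was up at least 6.02-fold (adjusted p = 0.0482). Ets2 fell by 2.05 (SE 0.56; adjusted p = 0.0471). Of 23 other endothelial genes 5 were higher and none lower, with a median of 1.02. They included Rasip1 and Arhgef15, regulators of small GTPases in vessels, at least 116-fold and 36.8-fold higher (adjusted p = 0.00041 and 0.00409), the adrenomedullin receptor subunit Ramp2 at least 18.6-fold (adjusted p = 0.0449) and the guidance receptor Robo4 at least 13.7-fold (adjusted p = 0.00611). No gene of the 5 lists was called against ES cells.

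**Figure D4:**
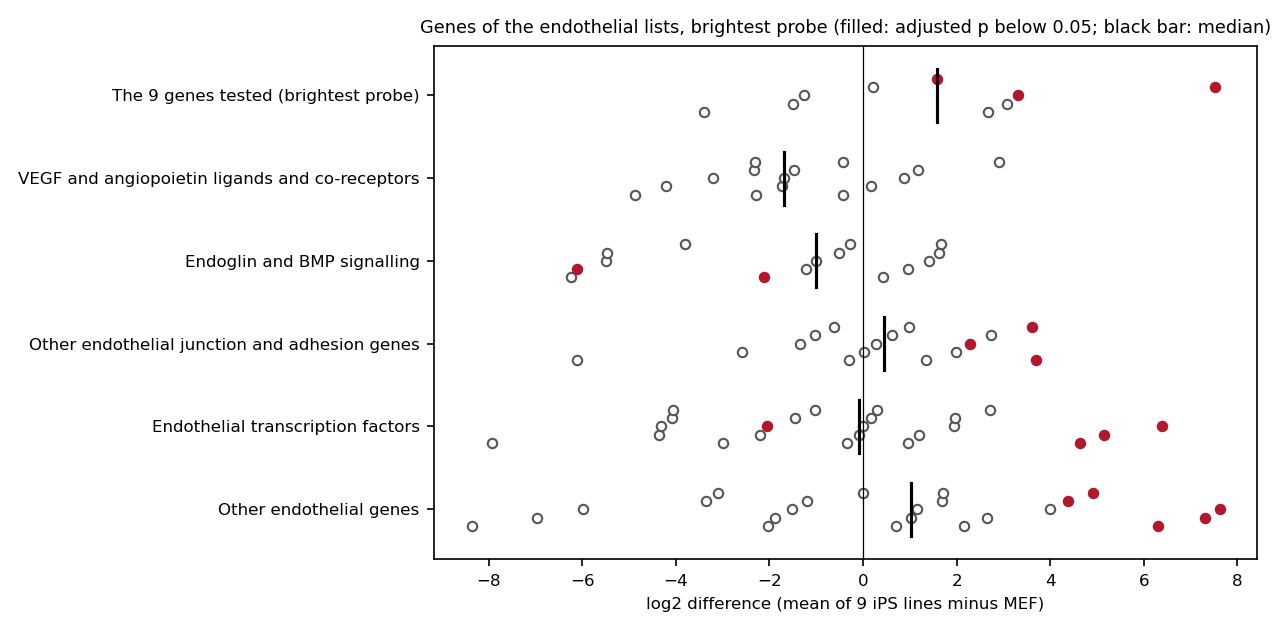
Log2 difference of the mean of 9 iPS lines from MEF (x axis) for each gene, read by its brightest probe, in 6 groups of endothelial genes (rows); filled points passed an adjusted p of 0.05, open points did not, and black bars are medians over the tested genes. The called genes among the 10 lie at 1.57 (Esam), 3.31 (Icam2) and 7.52 (Tek, AK053336 probe only). The VEGF and angiopoietin list, with a median of -1.70, has no filled point.

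As a check on the cells, 10 endothelial markers outside the 10 genes were read on each array. Of these, 8 were well above background in MEF, 10 in the spheres, 7 in ES cells and 6 to 10 in the lines. Of all gene spots on the same arrays, 72.8%, 80.0%, 64.9% and 58.4% to 78.4% were well above background. With each signal below its array's floor raised to that floor, the mean level of the 10 markers was -4.10, -3.51, -3.15 and -3.42 to -2.69. Only Robo4 of the 10 was called between lines and MEF. Early mesoderm markers, which include Etv2, had 2 of 8 called higher, Eomes and Etv2. Their mean level, with signals raised in the same way, was -4.89 in MEF, -3.15 in ES cells and -3.88 to -2.62 in the lines. Only 3 of the 8 were well above background in MEF, so its mean depends on its floor of -6.85. Primitive endoderm markers, which include Sox17, also had 2 of 8 called higher, Lama1 and Sox17, and blood markers had none. Of the mural markers 1 of 8 was called higher, Des, and of the neural stem markers 2 higher, Sox2 and Pax6, and 1 lower, Gfap, though another probe of Pax6 and another of Gfap each ran at least 2-fold the opposite way. The part of any such cells in the values of the 10 genes was not tested. In these bulk samples, fewer cells with a transcript and less of it per cell cannot be told apart.

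The genes whose signals ran most nearly parallel were found by Pearson's r for the brightest probe of 8 members, all but Kdr and Sox18, which were detected on too few arrays, over the 12 arrays, among 16480 genes and with signals raised to each array's floor. The arrays share their scaling and mostly hold pluripotent cells, so these are descriptions only. For Tek they were Acsbg3, Nudt11 and Gab1 (r = 0.98 for each), for Flt1 Syn3 (0.98), Crhbp (0.97) and Dkk3 (0.97), for Icam2 Syt7 (0.98), Atcay (0.97) and Olfr763 (0.96), for Esam Olfr982 (0.96), Pde6h (0.94) and Zfp94 (0.94), and for Egfl7 Wipf3 (0.92), Mgat4a (0.92) and Ndrg2 (0.91). None of the 10 genes was among the 3 closest to any of these 8.

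Promoter windows from RefSeq (GRCm38.p6) were at hand for 7 of the 10 genes, in 9 windows of 250 bases before a listed start. Short motifs of factor families that act in endothelial or pluripotent cells were searched on both strands. The ETS motif AGGAAG was in 6 of the 9 windows (Egfl7, Emcn, Eng, Flt1 and Tie1) and in 29.48% of all 32851 windows. The GATA motif AGATAA (9.99% of all windows), the POU motif ATGCAAA (4.12%) and the SOX motif AACAATG (3.29%) were in none of the 9. The windows of Eng and of the outermost Egfl7 start are shown because both genes were detected on all 12 arrays and these windows end where the annotated gene begins; capitals mark AGGAAG or its reverse complement.
Eng, chr2:32646345-32646594, plus strand: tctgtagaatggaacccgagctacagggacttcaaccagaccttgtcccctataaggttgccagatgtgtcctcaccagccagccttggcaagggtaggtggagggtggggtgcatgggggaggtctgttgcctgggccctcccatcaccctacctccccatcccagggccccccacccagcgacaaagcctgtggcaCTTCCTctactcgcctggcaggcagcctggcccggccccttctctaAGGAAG
Egfl7, chr2:26580833-26581082, plus strand: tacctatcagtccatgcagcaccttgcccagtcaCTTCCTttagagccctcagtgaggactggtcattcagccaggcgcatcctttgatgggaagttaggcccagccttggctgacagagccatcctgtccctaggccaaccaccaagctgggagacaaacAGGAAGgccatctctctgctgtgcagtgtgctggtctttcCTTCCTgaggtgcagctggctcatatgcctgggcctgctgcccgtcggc
A match in these windows is a description of the letters only. The Tek window, chr4:94739039-94739288, held none of the 4 motifs. Most of it lies inside the annotated gene, which begins at 94739086. The Kdr and Flt1 windows also lie inside their annotated genes.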

How the data were processed

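The deposited intensity values are one-colour Agilent processed signals, which Feature Extraction 9.5.3.1 made by background subtraction, per the file headers; the flags for well above background, saturation and outlier spots come from the same files. What else was done upstream is not stated in the labels or headers. Outlier spots were left out, replicate spots were averaged as log2 values, and each array's 75th percentile over 43379 gene spots was subtracted. Of 41174 probes, those well above background on at least 1 array were tested with limma 3.58.1 (R 4.3.3; lmFit, eBayes), with p-values adjusted by Benjamini-Hochberg over all of them and a threshold of 0.05. Models had 4 classes (8 residual degrees of freedom) or 8 groups (4 residual degrees of freedom), and a group with 1 array was assumed to vary like the others. In bounds, signals of the dim group below their array's floor were raised to it, and the mean of the bright group was kept. A bound is thus a point value without an interval. In the mean levels of marker lists, each signal below its array's floor was raised to that floor. Names came from accessions for 22951 probes, from symbols or synonyms for 6659 and 3109, and from the deposited name for 8455. The number of arrays limits the precision. The 10 genes and the lists were chosen with earlier results of these data known. All 10 genes were to be named, and from each list up to 4 called genes with the largest differences plus Cdh5, Pecam1, Angpt1, Angpt2, Vegfa, Etv2, Acvrl1 and Nrp1; marker genes that were called were named after their values were seen. Alternatives covered background, scaling, filter, probe choice, slide, model, clone number and lines left out. Clone numbers did not pair the samples: over 6 pairs of groups, the differences between lines 1 and 2 correlated from -0.15 to 0.22.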

Additional observations from a re-analysis of the deposited data

Results flagged for a closer look

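One member value stood apart from its group. On the Kdr NM_010612 probe, tail-tip line 1 read -4.41 among the 9 iPS lines, well above background, while the other 8 lines were dim, from -8.01 to -6.26. Its gap to the nearest line was 0.515 of the whole range. Chance sets about 1 in 20 groups apart in this way, and 14 probes were examined.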

How the results depend on the processing

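With the lines against MEF, where 4 probes were called higher and 0 lower, 2 were called higher in the 8-group model, under a fixed slide block, at the highest array floor for all signals and without the 3 lines nearest to MEF, and 0 within the slide of MEF and ES, where no probe of any gene was called with 1 residual degree of freedom. The last 3 settings were chosen after seeing the data. The lines left out as nearest to MEF were tail-tip line 2, purmorphamine line 2 and Bmi1-Oct4 line 1. They are not those with the highest fibroblast marker levels: Bmi1-Oct4 line 1 was at -1.95, and oxysterol line 1, at -0.76, was kept. Leaving out each line in turn gave 2 to 4 higher: 2 without Bmi1-Oct4 line 1, Bmi1-Oct4 line 2, the Shh-Oct4 line or purmorphamine line 1. With normexp background and with the highest array floor 1 probe was called lower, Flt1 BC029674 and Flt1 probe b. Tek AK053336 was called in 21 of 22 alternatives (differences 2.70 to 7.79), Icam2 in 18 of 22 (1.70 to 3.46), Tek NM_013690 in 11 of 20 and Esam in 8 of 22 (1.39 to 1.75). Over all probes, 1596 were higher and 678 lower with the fixed slide block, 1825 and 646 with the 8-group model, and 0 within the slide of MEF and ES.

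In the Bmi1-Oct4 comparison 1 probe was called lower with no filter on dim probes. With 1 array against 1, spheres against MEF had 2 higher with normexp, with the filter at 6 arrays, with 1 probe per gene and with the highest floor, and 0 with the pooled limma spread; 1 was lower with normexp and 1 with the pooled spread. ES against MEF had 3 lower with normexp, the filter at 6 arrays, 1 probe per gene, the 3-fold threshold and the highest floor, and 0 with the pooled spread, which called 1 higher. Spheres against ES had 6 higher when scaled on probes detected on all arrays, 1 with normexp, the filter at 6 arrays and the 3-fold threshold, and 0 with 1 probe per gene, the pooled spread and the highest floor; 2 were lower with the pooled spread.

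Signs turned for differences that had not passed. Against MEF, Kdr AK054510 was -0.019 with quantile normalisation and -0.24 with the slide block and within that slide, and Eng was -0.089 with quantile normalisation. Against ES cells, Esam was 0.074 with the slide block and within the slide, and Flt1 BC029674 ran from -0.30 to 0.021 when single lines were left out. Between groups of lines, Tek AK053336 ran from -1.36 to 0.29 (Bmi1-Oct4) and from -0.23 to 0.62 (tail-tip) without single lines and was -0.34 in the latter with the slide block, Esam ran from -0.75 to 0.0028 (oxysterol against purmorphamine), Icam2 was -0.0036 there with normexp, and Tek NM_013690 was -0.12 with normexp (tail-tip). The cause was not tested. Bmi1-Oct4 against hedgehog-agonist lines could not be fitted with slide as a fixed block, because slide 1 shared no group with the other slides.

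With clone number as a replicate block, 0 of the 14 probes were called in each comparison between groups of lines, as without it; the numbers do not pair the samples. Weak signal over background limits the probes detected on 4 arrays or fewer: Tie1, Emcn, Tek NM_013690, Flt1 AK005502, Flt1 AK084177, Sox18 and both Kdr probes.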
